A study of Rattus norvegicus with 8 samples.

Results

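Kupffer cell and macrophage markers were followed as 10 genes, namely C1qa, C1qb, C1qc, Cd68, Cd163, Marco, Clec4f, Vsig4, Adgre1 (Emr1) and Csf1r, chosen by name among the 20834 genes that the array names. They had 11 probes on 29 of the 58717 spots that are not controls. RNA was taken by laser microdissection (LMD), in which cells are cut out of a tissue section with an ultraviolet laser, from livers of F344 rats and hybridised to 1-colour Agilent arrays. All livers came from the Ret/PH model, in which retrorsine (Ret), a plant alkaloid that blocks division of mature hepatocytes, is given before partial hepatectomy (PH), so that the liver regrows from clusters of small hepatocyte-like progenitor cells (SHPCs). The groups were 2 samples of mature hepatocytes (MHs) and 3 samples of SHPC clusters, both cut, per the labels, from recipient control livers (control SHPCs), and 3 samples of SHPC clusters from recipient livers transplanted with bone marrow-derived mesenchymal cells (SHPCs with BM-MCs). BM-MCs were a cultured, plastic-adherent population from marrow, part of which still carried blood cell antigens. Age and time point are not in the labels. The labels also give DPPIV+ rats throughout, although per the methods DPPIV-positive donors were paired with DPPIV-negative recipients. Which rat a sample came from is not stated, and a p-value here therefore reflects sample-to-sample spread that may be technical.

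Kupffer cells are the macrophages that live in the liver sinusoids, the capillaries that run between the plates of hepatocytes. They take up particles, dead cells and haemoglobin from the blood, secrete complement C1q and cytokines, and depend on signalling through the receptor Csf1r for survival. The study asked about Kupffer cells in this model by staining the cytokine interleukin-25 together with Cd68, and with gadolinium chloride, an agent that inactivates them. The 10 genes are textbook markers of macrophages rather than of hepatocytes, and which cells of the cut tissue their RNA came from was not measured. In such samples fewer macrophages and less RNA per macrophage cannot be told apart.

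Each gene was measured by a 60-base probe, and 3 probes are shown because they mark what was hybridised. The Marco probe shows the collagen-like stalk of this receptor, in which glycine codons recur at a fixed spacing. It holds 7 GGN codons, printed in capitals, which start 9 bases apart. The C1qa and C1qc probes hold no such run and were taken from the messages of separate chains of the same complement protein.
Marco: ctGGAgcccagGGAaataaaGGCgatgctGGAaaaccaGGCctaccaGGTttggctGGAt
C1qa: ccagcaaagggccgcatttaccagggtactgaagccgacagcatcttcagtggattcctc
C1qc: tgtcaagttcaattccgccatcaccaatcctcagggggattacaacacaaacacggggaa
The scanner files place the probes on the rat build rn4. C1qa lay at chr5:155662578-155662637, C1qc at chr5:155656638-155656697 and C1qb at chr5:155647530-155647589, all on the minus strand. In RefSeq's gene table for GRCr8 the order is C1qb, C1qc, C1qa with 0 other genes between them. Cd163 lay at chr4:160423704-160423763 on the plus strand, Clec4f at chr4:117839920-117839979 and Cd68 at chr10:56481726-56481785, both on the minus strand. The probe positions of Vsig4 on chromosome X, Csf1r on chromosome 18, and Marco and Adgre1 on unplaced sequence span 487, 702, 163 and 1986 bp, more than the 60 bases of a probe, as happens where a probe crosses a splice junction.

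Levels below are log2 signals relative to the 75th percentile of the array, and they compare samples for 1 gene, not genes with each other. All 10 genes were well above background on each of the 7 arrays with complete marks, so that the filter on dim probes removed none. The eleventh probe, an upstream probe for Csf1r, was well above background on 1 of these 7 arrays, that of control SHPC replicate 3, and was not tested. The share of spots above background ran from 57.0% to 61.5% over the 8 arrays, with 0 spots saturated. On the slide, the first set of arrays carried the 2 MH samples with control SHPC replicates 1 and 2, and the second carried control SHPC replicate 3 with the 3 samples with BM-MCs. Set and transplantation therefore cannot be told apart except through control SHPC replicate 3. That sample also stood apart in the markers. It was the lowest of the 3 controls for 10 of 10 genes, against 33.9% of all tested probes, and lay below the mean of the other 2 controls by a median log2 difference of -0.52 (range -0.58 to -0.34), against 0.051 over all tested probes. SHPC replicate 3 with BM-MCs was the lowest of its group for 9 of 10 genes, against 32.6% of all tested probes.

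Complement C1q is the recognition part of the classical pathway and is assembled from A, B and C chains, each encoded by its own gene and made in the liver mainly by macrophages. C1qa was at 3.94 and 3.78 in the 2 MH samples, at 3.33, 3.47 and 2.82 in the 3 control SHPC samples, and at 3.60, 3.81 and 3.21 in the 3 samples with BM-MCs. Both MH samples were above every control, and the samples with BM-MCs overlapped both other groups. C1qb was at 4.81 and 4.91 in MHs, at 4.35, 4.34 and 3.83 in control SHPCs, and at 4.61, 4.56 and 4.08 with BM-MCs. The MH samples were the highest of all 8, and the third samples of both SHPC groups were the lowest. C1qc was at 1.44 and 1.70 in MHs, at 1.11, 1.07 and 0.56 in control SHPCs, and at 1.47, 1.25 and 0.65 with BM-MCs. All 3 chains thus had the third control as the lowest sample of the 8.

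The probes of C1qa and C1qb were printed at 10 spots on each array. These spots share 1 labelling and hybridisation, so that their spread is that between spots alone. The SD over the 10 spots was 0.024 to 0.059 for C1qa and 0.040 to 0.066 for C1qb on the log2 scale. The SD over the 3 control samples was 0.34 for C1qa and 0.30 for C1qb. The plot of single spots shows them by array.

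**Figure D1:**
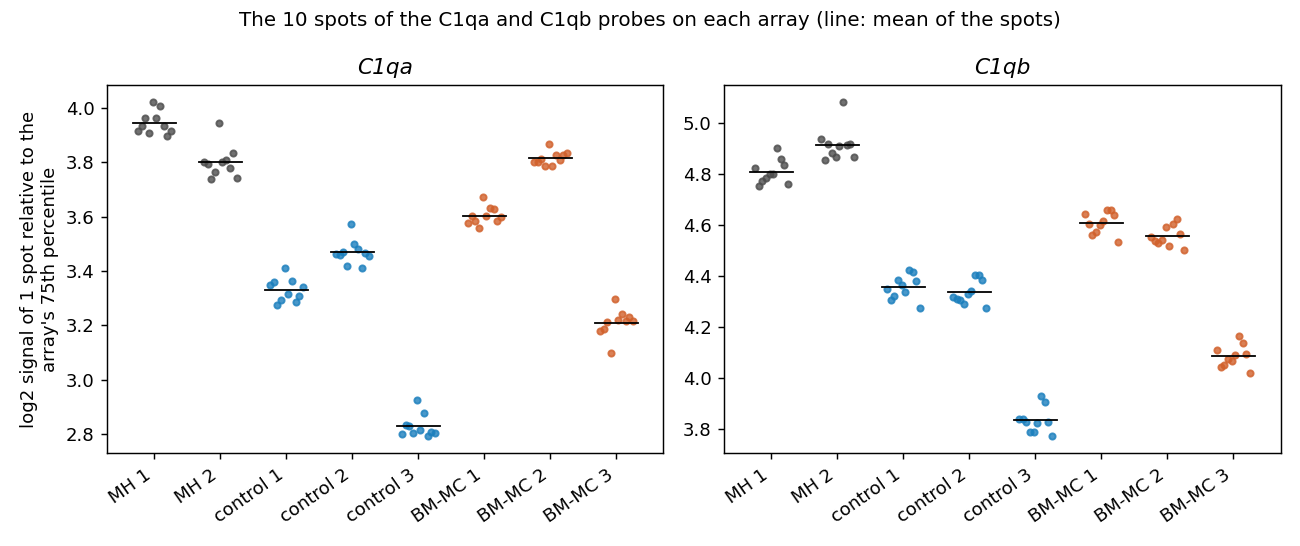
Single spots of the C1qa and C1qb probes, with 10 spots on each of the 8 arrays (horizontal axis) and the log2 signal relative to the 75th percentile of the array (vertical axis, which does not start at 0). Points are spots coloured by group, grey for MHs, blue for control SHPCs and orange for SHPCs with BM-MCs, and lines are their means. The spots of an array lie close together, and control replicate 3 lies below control replicates 1 and 2 for both genes, at a mean of 2.83 against 3.33 and 3.47 for C1qa.

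Scavenger receptors bind modified lipoproteins, bacteria and debris. Cd68 is a lysosomal glycoprotein of macrophages and the marker by which the study stained Kupffer cells. Cd68 was at 2.09 and 2.30 in MHs, at 1.58, 1.53 and 0.97 in control SHPCs, and at 1.80, 1.79 and 1.26 with BM-MCs. Both MH samples were above all 6 SHPC samples, and the SHPC groups overlapped. Cd163, the receptor that clears complexes of haemoglobin and haptoglobin, was at 0.75 and 0.72 in MHs, at 0.31, 0.33 and -0.12 in control SHPCs, and at 0.74, 1.07 and 0.35 with BM-MCs. It was the only one of the 10 genes for which every sample with BM-MCs was above every control, and its lowest sample with BM-MCs exceeded its highest control by less than the SD of either group. Marco, which binds bacteria and is carried by macrophages of the liver, spleen and lung, was at 0.43 and 0.89 in MHs, at 0.91, 0.83 and 0.48 in control SHPCs, and at 0.81, 0.60 and 0.71 with BM-MCs. Its groups overlapped in all comparisons, and its lowest sample was MH replicate 1.

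Clec4f, a C-type lectin that is restricted to Kupffer cells in rodents, was at 5.36 and 4.998 in MHs, at 4.75, 4.71 and 4.19 in control SHPCs, and at 5.09, 5.12 and 4.56 with BM-MCs. The MH samples were above the controls, and the samples with BM-MCs reached into both groups. Vsig4, a complement receptor of resident macrophages, was at -1.05 and -0.54 in MHs, at -0.95, -1.23 and -1.43 in control SHPCs, and at -0.69, -1.54 and -1.55 with BM-MCs. Its values overlapped between all groups. Adgre1, an adhesion receptor widely used to stain mouse macrophages, was at -0.66 and 0.13 in MHs, at -0.59, -0.73 and -1.19 in control SHPCs, and at -0.77, -0.96 and -1.33 with BM-MCs. All 3 samples with BM-MCs were below both MH samples, and the 2 MH samples were farther apart than the 3 controls. Csf1r, the receptor for the growth factors Csf1 and Il34, was at -1.09 and -0.78 in MHs, at -1.52, -1.47 and -1.88 in control SHPCs, and at -1.31, -1.54 and -2.11 with BM-MCs. The MH samples were above all 6 SHPC samples.

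**Figure D2:**
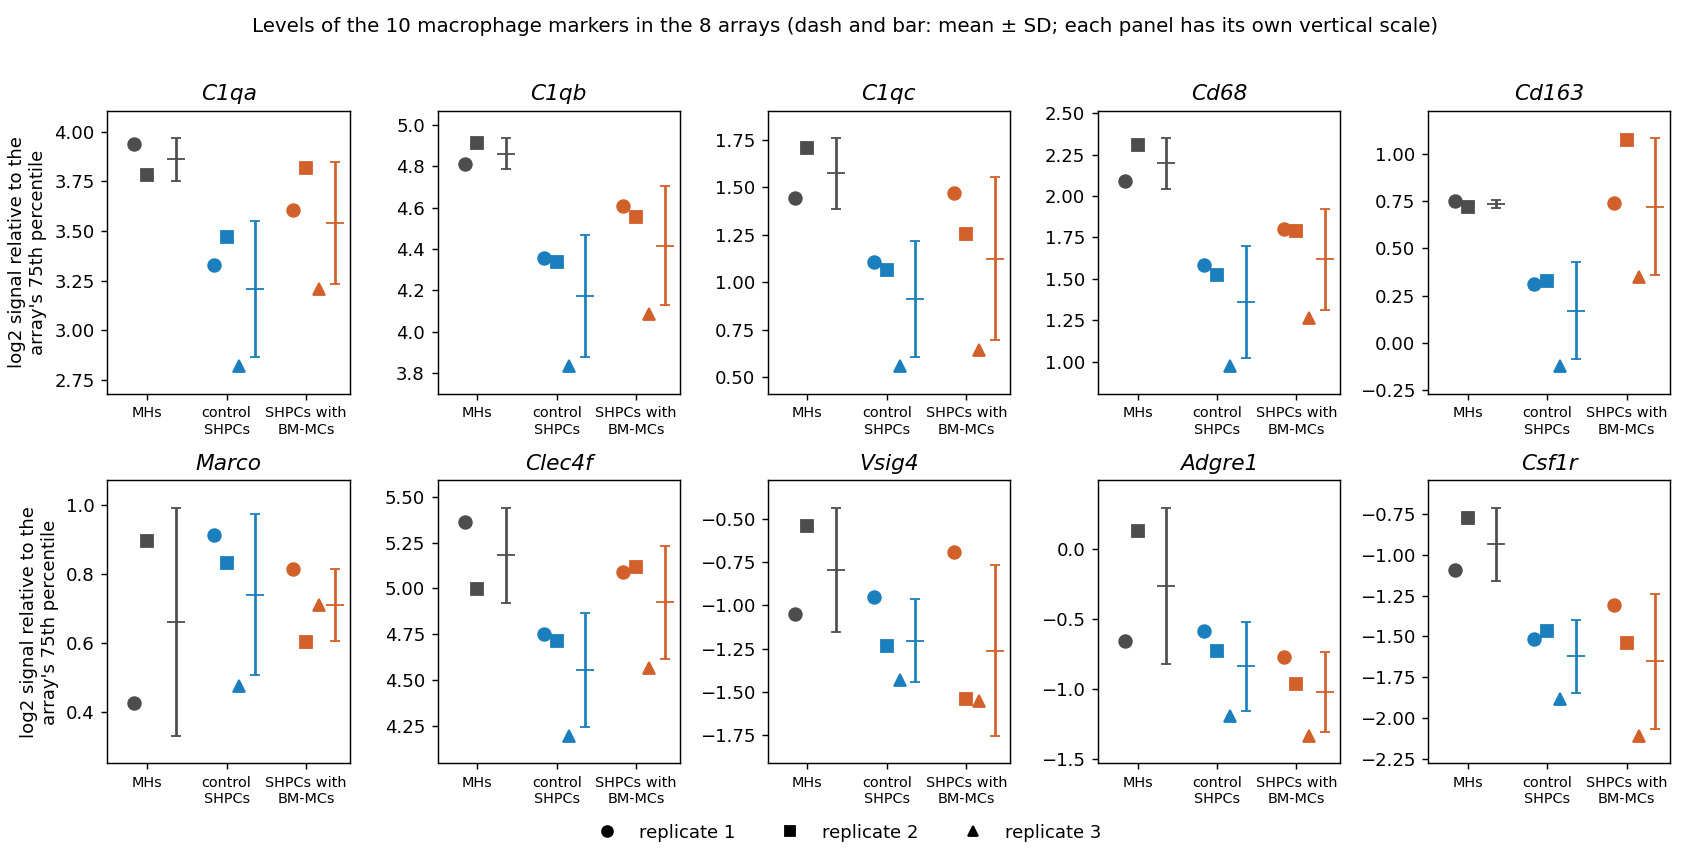
Levels of the 10 genes in the 8 samples, as log2 signal relative to the 75th percentile of the array (vertical axis, a separate range for each gene), by group on the horizontal axis. Symbols are replicates, dashes are group means and bars are SD (n = 2 MHs, n = 3 control SHPCs, n = 3 SHPCs with BM-MCs). The third replicate of control SHPCs is the lowest control in all 10 panels, and the groups of SHPCs with and without BM-MCs are separate for Cd163 alone.

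The question of whether SHPC clusters held more macrophage RNA after transplantation was addressed by comparing SHPCs with BM-MCs with control SHPCs. At an adjusted p under 0.05 (limma, Benjamini-Hochberg over 23049 probes) 0 of 10 genes were higher, against 0.0217% of all probes, and 0 of 10 were lower, against 0%. By unadjusted p under 0.05, 1 of 10 genes passed and was higher, against 10.7% of all probes. The methods' t-test called 0 genes either with or without adjustment. That gene was Cd163, whose mean was 0.17 ± 0.26 (SD, n = 3) in controls and 0.72 ± 0.36 (SD, n = 3) after transplantation, a log2 difference of 0.55 (standard error 0.22, limma adjusted p = 0.30). It was also the 1 gene whose groups did not overlap, against 13.1% of all probes with every sample with BM-MCs above every control.

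The other genes differed by less than the spread between samples could resolve. Clec4f had a mean of 4.55 ± 0.31 (SD, n = 3) in controls and 4.92 ± 0.31 (SD, n = 3) after transplantation, and its log2 difference was 0.37 (95% interval -0.17 to 0.91, limma adjusted p = 0.43). C1qa differed by 0.34 (95% interval -0.22 to 0.89, limma adjusted p = 0.48). Of the 10 genes 6 had a difference above 0, against 52.6% of all probes, and they were the 3 C1q chains, Cd68, Cd163 and Clec4f. Marco, Vsig4, Adgre1 and Csf1r had differences of -0.031, -0.057, -0.19 and -0.030. The 95% intervals of these 4 genes ran from -0.39 to 0.33, from -0.71 to 0.59, from -0.71 to 0.34 and from -0.60 to 0.54 and span 0. The median difference of the 10 genes was 0.23, against 0.018 over all probes.

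**Figure D3:**
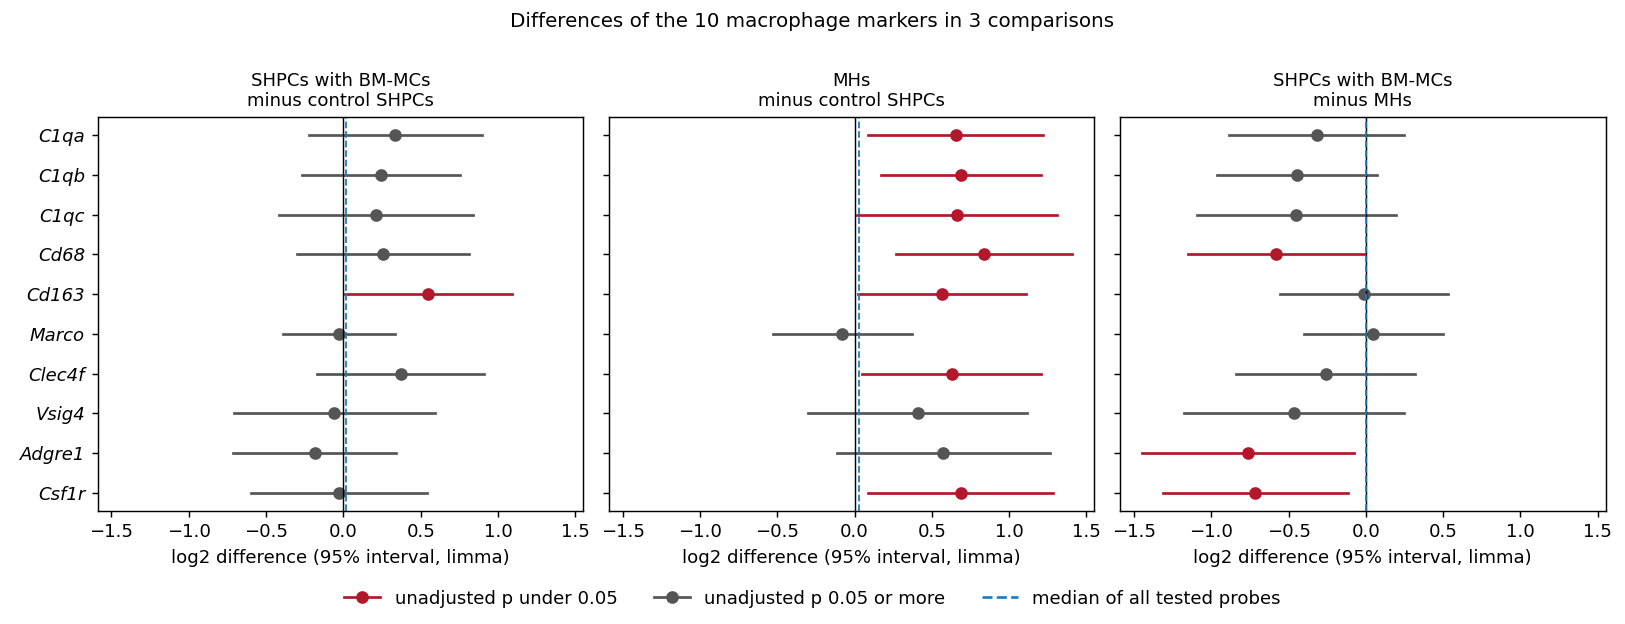
Differences of the 10 genes in 3 comparisons, as log2 difference of the first group minus the second (horizontal axis) with the 95% interval from limma. Red marks an unadjusted p under 0.05, grey a higher p, the solid line 0 and the dashed line the median of all tested probes. With BM-MCs against control SHPCs 1 gene is red, in MHs against control SHPCs 7 are red on the right, and with BM-MCs against MHs 3 are red on the left.

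These differences moved with the samples that were left out. The median difference of the 10 genes was 0.050 without control SHPC replicate 3, 0.092 without SHPC replicate 1 with BM-MCs and 0.42 without SHPC replicate 3 with BM-MCs, and 0.16 to 0.32 without any of the other 3 samples. For Cd163 the difference was 0.40 without the former and 0.74 without the latter, with limma adjusted p = 0.39 and 0.16, and it ran from 0.37 to 0.74 over the 6 samples left out in turn. Of these 6 fits it passed an unadjusted p under 0.05 only in that without SHPC replicate 3 with BM-MCs. Clec4f passed there too, against 2795 of 23048 probes higher. Without any of the other 5 samples 0 of 10 genes passed, against 1513 to 3098 probes higher. Within the second set of arrays, which holds 1 control, the mean of the 3 samples with BM-MCs was above control SHPC replicate 3 for 10 of 10 genes, by a median of 0.57 (range 0.17 to 0.84). With the set of arrays as a block the difference of Cd163 was 0.84, that of Clec4f 0.73 and that of C1qa 0.72. In that fit 4 genes passed an unadjusted p under 0.05 (Cd68 was the fourth), against 1367 of 23049 probes higher, but 0 the adjusted threshold. Against control SHPC replicates 1 and 2 of the other set the same samples had the median of 0.050 given above, with genes on both sides of 0, from -0.36 for Adgre1 to 0.40 for Cd163.

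MHs were compared with control SHPCs from livers with the same label, a comparison of mature hepatocytes with progenitor clusters. By limma's adjusted p 0 of 10 genes were higher in MHs, against 0.213% of all probes, and 0 lower, against 0.92%. By unadjusted p under 0.05, 7 of 10 genes were higher in MHs, against 11% of all probes. With a sample left out, 6 or 7 genes passed without control SHPC replicate 1 or 2 or a sample with BM-MCs, against 1838 to 2700 of 23049 probes. Without control SHPC replicate 3, 2 genes passed (Cd68 and C1qb), against 2428 of 23049 probes. The set of arrays as a block gave the same 2 genes, since it amounts to the fit without that control. Without MH replicate 1 or 2, which leaves 1 MH sample, the median difference of the 10 genes was 0.70 or 0.55. Csf1r alone was called by the methods' t-test without adjustment, against 2161 of 23049 probes, and 0 genes with it. The 7 genes that passed with all samples, which were the 3 C1q chains, Cd68, Cd163, Clec4f and Csf1r, had both MH samples above all 3 controls, against 22.7% of all probes. Cd68 had means of 2.20 ± 0.15 (SD, n = 2) in MHs and 1.36 ± 0.34 (SD, n = 3) in controls, and its log2 difference was 0.84 or 1.79-fold (standard error 0.24, limma adjusted p = 0.15). C1qb followed at 0.69 or 1.61-fold (standard error 0.22, limma adjusted p = 0.18), and Csf1r differed by 0.69 (standard error 0.26, limma adjusted p = 0.22).

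The remaining differences between MHs and control SHPCs were 0.65 for C1qa, 0.66 for C1qc, 0.56 for Cd163, 0.63 for Clec4f, 0.57 for Adgre1 and 0.41 for Vsig4. Marco was the exception with -0.079 (95% interval -0.53 to 0.37, limma adjusted p = 0.85). The median over the 10 genes was 0.64, against 0.032 over all probes, and 9 genes had a difference above 0, against 53.8% of all probes. Without control SHPC replicate 3 the median was 0.45. This is also the difference within the first set of arrays, in which 9 of 10 genes were above 0 (range -0.21 to 0.64), with Cd68 at 0.64, Csf1r at 0.56 and C1qb at 0.52.

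**Figure D4:**
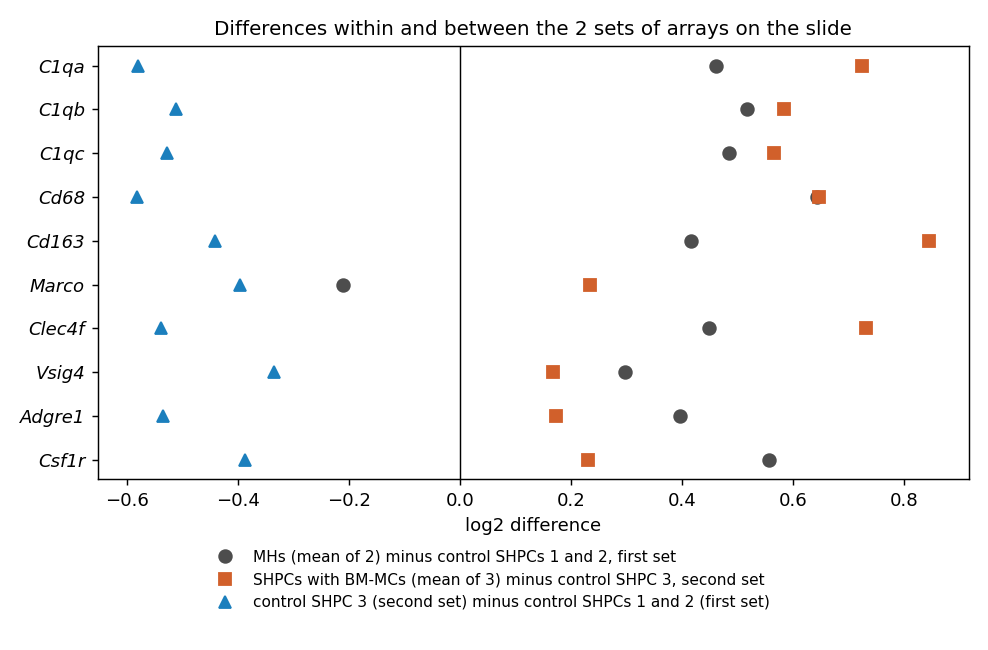
Differences within and between the 2 sets of arrays on the slide, as log2 difference (horizontal axis) for each of the 10 genes. Circles are MHs minus control SHPC replicates 1 and 2 in the first set, squares SHPCs with BM-MCs minus control SHPC replicate 3 in the second set, and triangles control SHPC replicate 3 minus control SHPC replicates 1 and 2. The triangles lie between -0.58 and -0.34, and the squares between 0.17 and 0.84.

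Set against MHs, SHPCs with BM-MCs had 0 of 10 genes higher by limma's adjusted p, against 0.321% of all probes, and 0 lower, against 0.0174%. By unadjusted p under 0.05, 3 genes were lower, against 5.97% of all probes, and by the methods' t-test 0. With a sample left out the number was 0 without SHPC replicate 3 with BM-MCs, against 941 of 23048 probes. It was 1 without SHPC replicate 2 with BM-MCs, against 1238 of 23046 probes. Without control SHPC replicate 1 or 2 it was 2, against 1041 and 1106 of 23049 probes. Without control SHPC replicate 3 or SHPC replicate 1 with BM-MCs it was 4, against 1487 and 1465 of 23049 probes. Fits that leave 1 MH sample were not counted. Csf1r had means of -0.94 ± 0.22 (SD, n = 2) in MHs and -1.65 ± 0.41 (SD, n = 3) after transplantation, with a log2 difference of -0.72 (standard error 0.26, limma adjusted p = 0.33). Adgre1 differed by -0.76 (standard error 0.29, limma adjusted p = 0.35) and Cd68 by -0.58 (standard error 0.24, limma adjusted p = 0.37). For these 3 genes and C1qb every sample with BM-MCs was below both MH samples, against 16.3% of all probes. Cd163 and Marco were at -0.014 and 0.048, with 95% intervals from -0.56 to 0.53 and from -0.40 to 0.50. The median of the 10 genes was -0.45, against 0.0029 over all probes. No set of arrays held both groups. With the set as a block, which ties them through the controls, the median was 0.073, so that the order of SHPCs with BM-MCs and MHs was not settled by these arrays.

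Correlations of levels over the 8 samples were read for each gene with its closest and its farthest partner. These are descriptions over the same 8 arrays, which share slide, labelling and scaling. C1qb and Cd68 had r = 0.996, C1qc and C1qb 0.975, C1qa and Clec4f 0.968, Csf1r and C1qc 0.942, Adgre1 and Csf1r 0.920, Cd163 and C1qa 0.915, and Vsig4 and Adgre1 0.845. Marco had Vsig4 as its closest partner with r = 0.535 and Clec4f as its farthest with r = -0.0075, and it was the farthest partner of 7 other genes. Cd163 was the farthest partner of Vsig4 (r = 0.251) and Adgre1 (r = 0.363). Relative to the control mean, the median of the 10 genes was 0.55 and 0.70 in the 2 MH samples, 0.19, 0.16 and -0.35 in the 3 controls, and 0.44, 0.36 and -0.093 in the 3 samples with BM-MCs. All 10 genes were above the control mean in the first sample with BM-MCs, 7 in the second and 3 in the third.

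Among 15850 other named probes, 391 (2.47%) had r over 0.9 with the mean profile of the 10 genes. The closest 10 genes were Cndp1 (r = 0.995), Ppp1r18 (0.988), Ctss (0.987), C11h3orf70 (0.987), Ccl6 (0.985), Icos (0.985), Lilra5 (0.984), Snn (0.984), Pilra (0.984) and Clip2 (0.984). Among them only Ctss belongs to a list read below, so that the ranking also takes in genes not used here as macrophage markers. Cndp1, the closest, was at -1.62 and -1.32 in MHs, at -2.03, -2.09 and -2.75 in control SHPCs, and at -1.845, -1.90 and -2.47 with BM-MCs. Ctss, a lysosomal protease of antigen presenting cells, was at 2.60 and 2.83 in MHs, at 2.33, 2.24 and 1.75 in control SHPCs, and at 2.62, 2.30 and 1.82 with BM-MCs. Ccl6, a chemokine of rodent macrophages, was at 1.38 and 1.47, at 1.02, 0.94 and 0.43, and at 1.15, 1.09 and 0.72 in the same order.

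Other macrophage lists were read in the same fits, and none of their genes passed the adjusted threshold except where stated. Of the 17 tested genes of a wider Kupffer list, 17 were above 0 in MHs against control SHPCs (median 0.59, 5 by unadjusted p, against 11% of all probes) and 15 with BM-MCs against control SHPCs (median 0.18, 0 by unadjusted p, against 10.7%). Relative to the control mean the median of this list was 0.19, 0.20 and -0.45 in the 3 controls, and 0.33, 0.33 and -0.059 with BM-MCs. The count above 0 with BM-MCs thus depended on control SHPC replicate 3, as for the members. In it the lowest p values with BM-MCs were those of Vcam1, an adhesion molecule, at 0.54 (limma adjusted p = 0.40) and Fcgr3a, an IgG receptor, at 0.25 (limma adjusted p = 0.46). Of 16 shared myeloid genes 14 were above 0 in MHs against control SHPCs (median 0.46) and 11 with BM-MCs (median 0.084). Cd14, the co-receptor for endotoxin, ran the other way in both, at -0.63 in MHs (limma adjusted p = 0.27) and -0.51 with BM-MCs (limma adjusted p = 0.35), whereas Fcer1g, an adaptor of IgG receptors, was at 0.68 and 0.29. Relative to the control mean the median of the shared myeloid genes was 0.24, 0.14 and -0.36 in the 3 controls. With BM-MCs it was 0.16, 0.16 and -0.12. Set against control SHPC replicates 1 and 2 alone, most of these genes were lower with BM-MCs.

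Regulators and ligands of macrophages were read next. The 13 macrophage transcription factors had a median of 0.29 in MHs and 0.12 with BM-MCs against control SHPCs, with 3 genes higher and 0 lower by unadjusted p in the latter, against 10.7% and 5.94% of all probes, and 4 higher and 1 lower in the former, against 11% and 8.21%. Pparg, a factor for lipid handling, was at 0.89 with BM-MCs (limma adjusted p = 0.25) and Zeb2, which maintains tissue macrophages, at 0.44 (limma adjusted p = 0.23). The level of Pparg in control SHPC replicate 3, -5.89, lay below the faintest signal marked above background on that array. Of the ligands of Csf1r, Csf1 was at 0.56 with BM-MCs (limma adjusted p = 0.26) and at 0.55 in MHs (limma adjusted p = 0.24), and Il34 at 0.030 and -0.076. The 6 partners of C1q in the early complement cascade, which hepatocytes make as well, had medians of 0.27 in MHs and 0.18 with BM-MCs, with C2 at 0.28 (limma adjusted p = 0.28) and C1s at 0.18 (limma adjusted p = 0.56) in the latter.

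Genes of recruited monocytes and of scar macrophages gave 7 tested genes of 11, with medians of 0.17 in MHs and 0.083 with BM-MCs. Relative to the control mean their median was 0.21, 0.25 and -0.51 in the 3 controls, and 0.019, 0.18 and -0.12 with BM-MCs. 1 of the 7 genes passed. S100a4, a calcium-binding protein of motile cells, was at -2.13 and -2.06 in MHs, at -1.20, -1.23 and -1.34 in control SHPCs, and at -1.67, -1.48 and -1.30 with BM-MCs, and it was lower in MHs than in control SHPCs by a log2 difference of -0.83 (standard error 0.14, limma adjusted p = 0.042). With 1 of the 8 samples left out in turn it stayed past the threshold in 2 fits, those without BM-MC SHPC replicates 1 and 3, and the adjusted p rose to 0.24 without MH replicate 1 and was 0.064 to 0.17 without MH replicate 2 or a control, or without BM-MC SHPC replicate 2. Ccr2 and Cd9 were well above background on 0 of the 7 arrays with complete marks, Spp1 on 1 and Trem2 on 2. Of 12 activation genes 5 were tested, with medians of 0.35 in MHs and 0.24 with BM-MCs. Il1b was at 0.24 with BM-MCs (limma adjusted p = 0.50) and Cxcl2 at 0.29 (limma adjusted p = 0.50). Il25, the cytokine by which the study read Kupffer cells, was well above background on 0 of the 7 arrays, as were Nos2, Il6, Il12b and Ptgs2, so that no difference of these genes was detectable here. Of 10 tested genes for the uptake of dead cells 10 were above 0 in MHs (median 0.11) and 6 with BM-MCs (median 0.044), where Cd300lf was at 0.86 (limma adjusted p = 0.24) and Stab2 at 0.37 (limma adjusted p = 0.30).

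Markers of the other cells of the cut tissue were read beside these values, and their part in the differences was not tested. Hepatocyte genes were measured for 12 of 12, with medians from -0.26 to 0.14 relative to the control mean in the 8 samples, and with BM-MCs against control SHPCs 3 were above 0 and 9 below (median -0.11). The 2 with the lowest p, Cebpa and Cyp2e1, were among the 3, at 0.29 and 0.57 (limma adjusted p = 0.31 and 0.34). Sinusoidal endothelial genes, which mark the capillaries where Kupffer cells sit, had 11 tested genes, whose median relative to the control mean was 0.18 in control SHPC replicate 3 against -0.073 and -0.054 in the other controls. Single genes differed from this median, since Pecam1, an adhesion molecule of endothelium, was at -0.22 in control SHPC replicate 3, its lowest level of the 8 samples, against 0.14 and 0.19 in the other controls. Their median differences against control SHPCs were 0.21 in MHs and 0.18 with BM-MCs, with Gpr182 at 0.47 and Kdr at 0.32 in the latter (limma adjusted p = 0.25 and 0.28). Of 12 tested stellate cell genes 7 were above 0 and 5 below in MHs (median 0.30, from -1.11 for Dcn to 1.47 for Reln), and 10 were above 0 and 2 below with BM-MCs (median 0.25). In this list Rgs5, a gene of contractile pericytes, was higher in MHs than in control SHPCs by 1.09 (standard error 0.17, limma adjusted p = 0.034) and at 0.57 with BM-MCs (limma adjusted p = 0.19). The call in MHs was kept in 1 of the 8 fits that left out a sample, that without BM-MC SHPC replicate 3, and the adjusted p was 0.051 to 0.16 in the other fits. Both calls, of S100a4 and Rgs5, were lost with the set of arrays as a block (limma adjusted p = 0.064 and 0.069). These are the values of the fit without control SHPC replicate 3, so the block is not a further check.

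Of the 7 tested erythroid genes 5 were highest in the third control among all 8 samples, and their part in the low marker levels of that sample was not tested. Slc4a1, the anion exchanger of red cells, was lowest there among the controls, at -2.81 against -2.56 and -2.75, and Ahsp, a chaperone of haemoglobin, was highest in SHPC replicate 2 with BM-MCs. The 7 genes had a median of 1.15 above the control mean in control SHPC replicate 3, -0.55 and -0.60 in the other controls, -1.26 and -0.22 in MHs, and -1.34, -1.43 and -1.17 with BM-MCs. Hba-a1, a haemoglobin chain, was at -1.46 with BM-MCs against controls (limma adjusted p = 0.24). The array lowest in the macrophage markers among the controls was thus the one with the highest erythroid median. Granulocyte genes were tested for 3 of 8 genes, all lower with BM-MCs by unadjusted p (median -1.46), against 5.94% of all probes, with S100a9 at -1.84 (limma adjusted p = 0.070) and Retnlg at -1.30 (limma adjusted p = 0.087). Their summed level was 0.87 to 1.21 of the control mean in controls, 0.30 and 1.16 in MHs and 0.28 to 0.37 with BM-MCs, and Mpo, Elane, Camp, Csf3r and Cxcr2 were well above background on 0 of the 7 arrays. Lymphocyte genes were tested for 4 of 11 (medians -0.29 in MHs and -0.086 with BM-MCs), of which 2 were above 0 and 2 below with BM-MCs, Gzmb at 0.22 and Nkg7 at 0.12 against Cd3g at -0.58 and Cd3d at -0.30 (limma adjusted p = 0.82, 0.83, 0.22 and 0.25). Cholangiocyte genes, tested for 6 of 7, had medians of -1.10 in MHs, where 6 were below 0, and -0.50 with BM-MCs, where 5 were below 0 and Sox9 was at 0.62. With BM-MCs Cldn4 was at -1.40 and Epcam at -0.43 (limma adjusted p = 0.22 and 0.27). Several of these genes were near the floor. Cldn4 lay below the array's faintest signal marked above background in MH replicate 1 and in SHPC replicates 2 and 3 with BM-MCs. Krt19 and Cftr did so in MH replicate 1, and Gzmb of the lymphocyte list in control SHPC replicate 3.

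**Figure D5:**
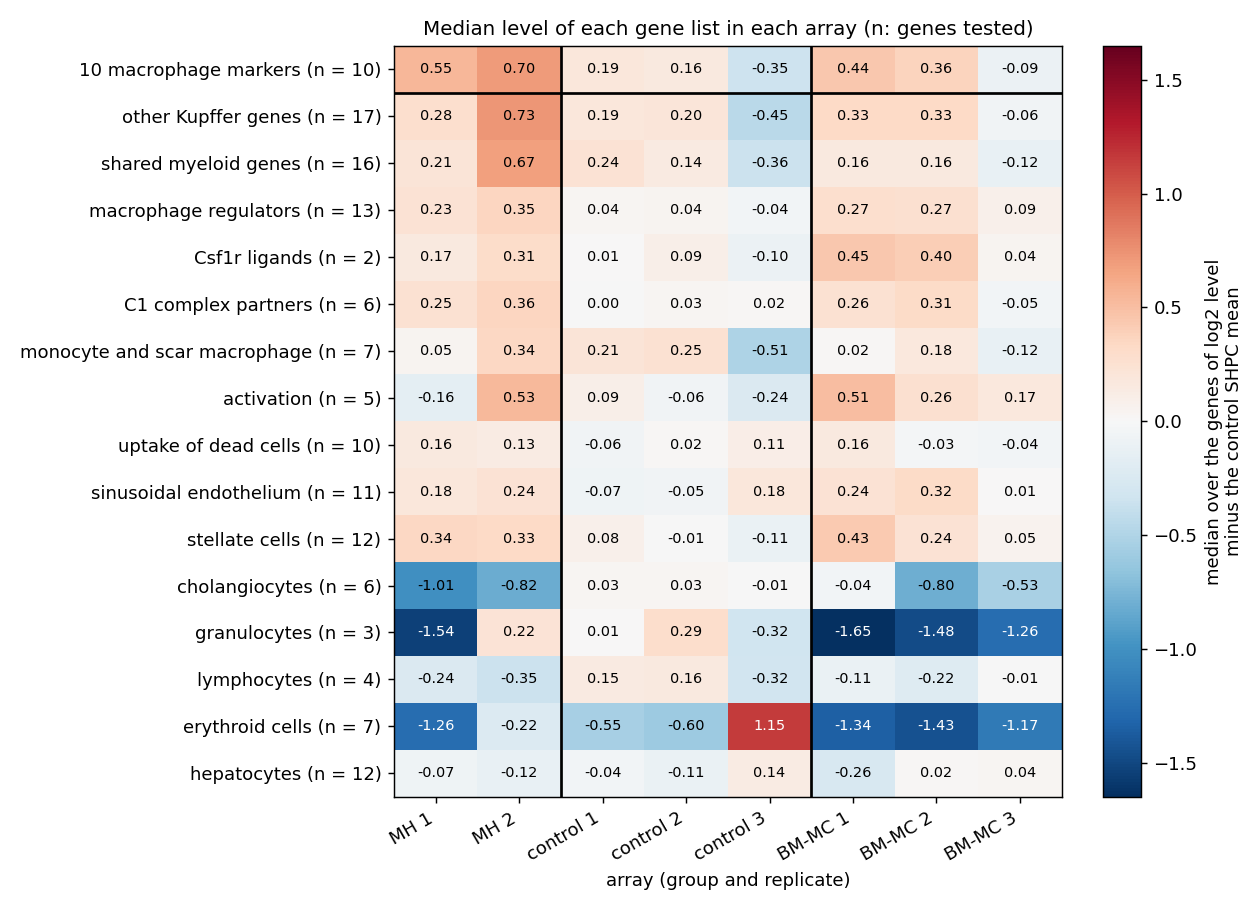
Median level of each gene list in each of the 8 samples, as the log2 level minus the mean of the control SHPCs, with red above and blue below 0 and the value printed in each field. Rows are lists with the number of genes tested (n), and columns are samples, with lines between the groups. The top row runs from 0.70 in MH replicate 2 to -0.35 in control SHPC replicate 3, the sample in which the erythroid genes are at 1.15.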

How the data were processed

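RNA of 8 microdissected samples was labelled with Cy3 and hybridised to 1-colour Agilent arrays. The authors deposited processed signal, an intensity with background subtracted by Agilent Feature Extraction 10.7 and no scaling between arrays. For control SHPC replicate 2 the deposited scanner file ends at 20903 of 62976 features, so that all signals were taken from the deposited value table, which differed from the scanner files by at most a relative 1.19e-06. Log2 signals were set relative to each array's 75th percentile, outlier spots were left out and spots of 1 probe averaged. A probe was tested when marked above background in 3 or more of the 7 complete scanner files, which left 23049 of 45598 probes. These were fitted with limma 3.58.1 in R 4.3.3 and adjusted by Benjamini-Hochberg. The SHPC groups were compared in a fit of 6 samples and MHs in a fit of all 8. On simulated data for the comparison of SHPCs the fit recovered 53% of 100 probes changed 2-fold and 85% of 100 changed 4-fold, over 22910 probes. The simulated noise was independent between probes and held no difference between sets of arrays. Both sizes exceed the largest difference of a member between the SHPC groups, 1.46-fold for Cd163, whose recovery was not measured. The members and lists were chosen with earlier results of these data known. All 10 genes are named. Of each other list, the genes past the adjusted threshold are named (at most 4), or else the 2 with the lowest unadjusted p between the SHPC groups. A gene that this rule named is not reported here. Slc4a1, Ahsp, Gzmb, Nkg7, Dcn, Reln, Sox9 and Pecam1 fall outside the rule and were chosen after their values were seen. The 10 genes closest to the members were ranked by Pearson correlation with their mean centred level. The number of arrays limits the precision.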

Additional observations from a re-analysis of the deposited data

How the results depend on the processing

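No member passed the adjusted threshold under any of the 21 alternatives for SHPCs with BM-MCs against control SHPCs or the 23 for each comparison with MHs. The exception in counting was the methods' t-test without adjustment, which called 1 gene (Csf1r) higher in MHs than in control SHPCs, against 2161 of 23049 probes. Of the single differences 15 of 210, 3 of 230 and 16 of 230 changed sign between SHPC groups, in MHs against control SHPCs, and with BM-MCs against MHs. With the set of arrays as a block the SHPC comparison gave 0.23 for Marco, 0.17 for Vsig4, 0.17 for Adgre1 and 0.23 for Csf1r, and normexp background correction with quantile normalization gave 0.00078 for Marco and 0.016 for Csf1r. In the comparison with MHs that block gave 0.26 for C1qa, 0.066 for C1qb, 0.080 for C1qc, 0.0029 for Cd68, 0.43 for Cd163 and 0.28 for Clec4f, and Cd163 was also above 0 with quantile normalization (0.033), array weights (0.035) and normexp (0.054). Marco was at -0.15 with median scaling and -0.032 without scaling in that comparison, and at 0.0091 without scaling in MHs against control SHPCs. The cause was not tested. Median scaling moved the median of all probes between the SHPC groups from 0.018 to -0.17 and that of the members from 0.23 to 0.036.

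With each replicate left out in turn, the SHPC comparison ran from -0.16 to 0.056 for Marco, from -0.34 to 0.088 for Vsig4 and from -0.20 to 0.20 for Csf1r, MHs against control SHPCs from -0.31 to 0.15 for Marco, and SHPCs with BM-MCs against MHs from -0.19 to 0.17 for Cd163 and from -0.18 to 0.28 for Marco. Where this left 1 MH sample, it was assumed to vary like the other groups. Averaging all tested probes of a gene changed nothing, since each gene had 1.

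Whether the replicate numbers pair the samples was not settled. The correlation of deviations from the group means was 0.13, 0.079 and 0.17 between same-numbered control and BM-MC samples. Differently numbered ones had -0.15 to 0.082, the highest between control SHPC replicate 2 and BM-MC replicate 1. Same-numbered pairs with an MH sample had -0.13 to 0.051. With the replicate number as a block 0 members were called in any comparison, and Cd163 was at 0.15 with BM-MCs against MHs. By unadjusted p under 0.05 that block had Cd163, Clec4f and C1qa higher with BM-MCs than in control SHPCs. Their unadjusted limma p values were 0.0094, 0.019 and 0.027, and 2650 of 23049 probes were higher by this rule.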
